A study of Mus musculus with 32 samples.

Results

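Fibroblasts held for 6 days in reprogramming medium with ascorbic acid and the DOT1L inhibitor SGC0946 (AS) were compared with cells taken from that medium at day 4, over all expressed genes. The 4 AS libraries, A and B at each day, were chosen by their sample titles and held 837 of the 7645 cells kept over the 32 libraries of the series. A kept cell is a barcode that is not on the authors' list of irradiated feeder cells, and 689 of 8334 barcodes were dropped on that account. Each library is a droplet assay of the 3' ends of transcripts in single cells, in which unique molecular identifiers (UMIs) count molecules.

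The series followed mouse embryonic fibroblasts (MEFs) through reprogramming in several media, with untreated MEFs and embryonic stem cells (ESCs) beside them, in 16 groups of 2 libraries. Both AS groups shared everything in the labels except time. They received doxycycline, the drug that switches on inducible transgenes, at 2 ug/mL, SGC0946 at 5 uM and ascorbic acid at 50 ug/mL, in ESC medium with serum and leukemia inhibitory factor, and they grew on irradiated feeder MEFs. Medium was renewed at days 2 and 4. AS lacked 2i, the pair of CHIR-99021, a GSK3 inhibitor, and PD-0325901, a MEK inhibitor. Of the other media, 3 held 2i and were also sampled at days 4 and 6: A2S joined it to both AS compounds, A2 to ascorbic acid alone and S2 to SGC0946 alone. The labels name neither the induced factors nor the mouse strain, and they do not say that A and B came from separate cultures. All p-values therefore rest on the spread between libraries, which may be technical. Except in the fit of the AS libraries alone, that spread was fitted over all groups used. The AS day 4 libraries differed from each other more than any other pair, so p-values of the AS contrast may be too small.

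Fibroblasts that are driven towards pluripotency pass through a mesenchymal-to-epithelial transition, in which adhesion genes such as the cadherin Cdh1 are switched on and fibroblast regulators are switched off. DOT1L methylates lysine 79 of histone H3 over transcribed genes, and its inhibition is known to ease the loss of the fibroblast programme. Ascorbic acid is a cofactor for TET enzymes, which oxidise methylated cytosine, and for Jumonji histone demethylases. MEK inhibition by 2i blocks signalling through ERK kinases.

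The kept cells numbered 139 and 236 in day 4 libraries A and B, and 255 and 207 in day 6 libraries A and B. Their UMIs summed to between 1910952 and 4513131 per library, with medians of 13012 to 18868 per cell. Listed feeder cells made up 6.08% and 9.23% of barcodes at day 4, and 2.30% and 3.27% at day 6. Of the AS barcodes, 5 also occurred in another library, 1 of them in 2 AS libraries. All 9 fibroblast markers were detected in AS, with summed levels of 10744 and 11235 CPM (counts scaled to a common library total) at day 4, and of 8483 and 8512 at day 6. CPM are scaled by library factors (TMM). The endothelial genes Pecam1 and Kdr, the neural crest gene Sox10 and the pluripotency gene Dppa5a were at 0 UMIs in all 4 libraries. Other members of the same lists were detected. In day 4 A, day 4 B, day 6 A and day 6 B the endothelial marker Tek was at 122, 71.5, 99.1 and 103 CPM. The neural marker Tubb3 was at 30.9, 20.2, 3.63 and 9.40 CPM in that order, and the blood marker Laptm5 at 223, 203, 345 and 297. Cd68 was at 5.57, 15.7, 12.7 and 15.4 CPM. Of the 9 macrophage and blood markers, 7, 6 and 7 were at 0 in day 4 A, day 6 A and day 6 B, whereas none was in day 4 B, where the macrophage lysozyme gene Lyz2 had 92 UMIs.

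The day 4 libraries stood apart from each other more than any other replicate pair. Their chi-square per degree of freedom was 8.62, against 1.64 to 3.61 in the other groups and 2.23 in AS day 6. Of 4731 genes at 50 CPM or more, 86 differed between day 4 A and B by over 2-fold, 72 of them higher in B, whereas other groups had 0 to 19 such genes and AS day 6 had 5. Of those 72, 17 belong to the list of interferon response genes described below. That list does not hold every interferon-induced gene, so 17 is not their full number. Ifitm3, at 745 and 3001 CPM in day 4 A and B, and Ifi203, at 27.9 and 139, lie outside it. Across 13228 genes, the mean profile most like day 4 A was that of A2 day 4 (correlation of log2 levels 0.969), and the one most like day 4 B was that of FBS day 3 (0.974), the serum medium without small molecules. Levels are therefore given for each library, in the order day 4 A, day 4 B, day 6 A and day 6 B, and counts of list members for most lists also without day 4 B.

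Between day 4 and day 6, 16 of 29 epithelial adhesion genes and 19 of 40 pluripotency genes rose in AS (8 and 14 without day 4 B), while Pou5f1 stayed at the level of single UMIs. Falls passed the test for 7 of 20 contractile genes and YAP targets (4 without day 4 B), for 8 of 19 genes of the TGF-beta and BMP response (8 without day 4 B) and for 12 of 28 genes of cholesterol and fatty acid synthesis (10 without day 4 B). Of 13228 genes tested, 2936 were called at an adjusted p under 0.05 by edgeR's quasi-likelihood test, which is 22.2%. Of these, 1423 rose (10.8% of those tested) and 1513 fell (11.4%). In 1411 of the called genes both day 6 libraries lay above both day 4 libraries, in 1431 both lay below, and in 94 the groups overlapped. Such separation was frequent without a call, since it held for 52.5% of all tested genes, and the median change over all tested genes was 0.

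The number of calls depended on the libraries used. Leaving out day 4 A gave 3229 calls (23.5% of those tested; 11.2% higher and 12.3% lower). Leaving out day 4 B gave 1757 (12.8%; 6.05% higher and 6.77% lower), of which 1396 were among the 2936 with the same direction. Counts of list members with all libraries are to be read against the shares over all genes, 10.8% higher and 11.4% lower. The counts of list members without day 4 B that follow are to be read against the lower shares found without that library. Without day 6 A there were 1642 calls and without day 6 B 2034. A fit of the 4 AS libraries alone, which takes no information on spread from other groups, called 833 (7.35%; 4.59% higher and 2.76% lower), and DESeq2 called 2055 (16.8%; 8.34% and 8.5%). Levels are sums over cells, so fewer cells with a transcript and less of it per cell cannot be told apart. In what follows a change is the fitted log2 ratio of day 6 to day 4 with its standard error, n = 2 libraries a day, and adjusted p values are edgeR's over all 13228 genes.

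**Figure D1:**
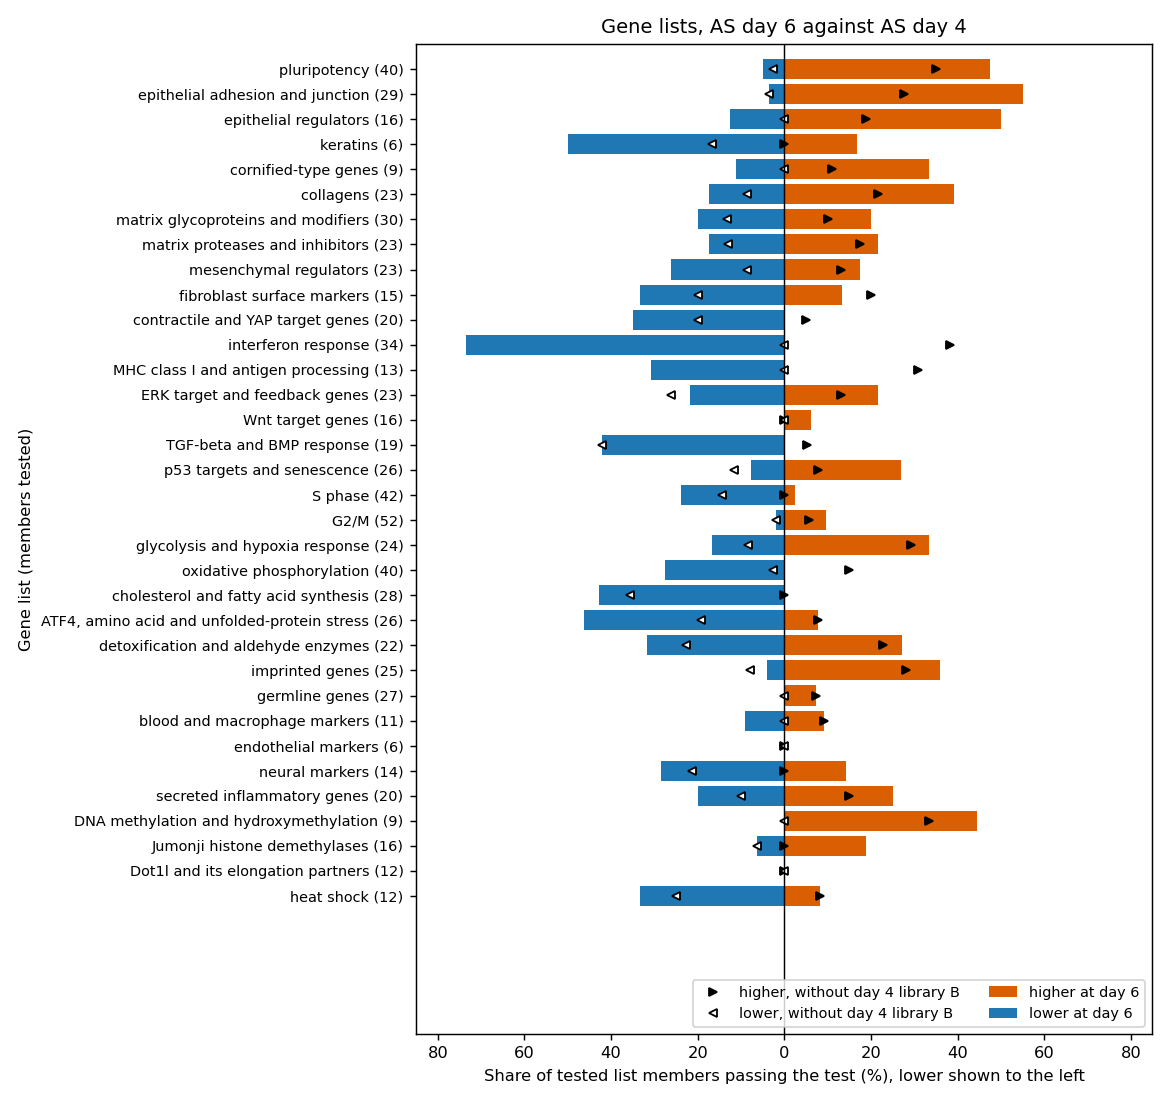
Share of tested members of 34 gene lists (number tested in brackets) that passed the test as higher (right, orange) or lower (left, blue) at AS day 6 than at day 4, in percent; triangles give the same shares without day 4 library B. Over all genes, 10.8% were called higher and 11.4% lower, or 6.05% and 6.77% without day 4 B; the interferon list is called lower with all libraries (25 of 34) and higher without day 4 B (13 of 34).

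Epithelial adhesion and junction genes rose in 16 of 29 tested members and fell in 1, with a median change of 1.68. Without day 4 B, 8 rose and 1 fell, and in the AS libraries alone 9 rose and 1 fell. Epcam, an adhesion molecule of simple epithelia on chromosome 17 (chr17:87635979-87651129, plus strand, build mm10), had levels of 7.09 and 6.05 CPM in day 4 A and B, and of 73.4 and 86.3 in day 6 A and B. Both day 6 libraries were far above both day 4 libraries, a change of 3.63 ± 0.27 (adjusted p = 4.19e-11) or 12.4-fold. Cdh1, which encodes E-cadherin (chr8:106603351-106670246, plus strand), stood at 13.2 and 15.9 CPM at day 4, and at 79.1 and 76.5 at day 6, with a change of 2.38 ± 0.19 (adjusted p = 2.11e-10). Cdh1 and Epcam were at under 1 CPM in untreated MEFs, and at 602 and 707 CPM and 324 and 366 CPM in ESC libraries A and B.

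The window of bases -200 to -1 from the RefSeq start of Epcam (chr17:87635779-87635978, plus strand, GRCm38.p6) is printed because it holds 2 copies of the E-box that Snail-type repressors of epithelial genes bind, CAGGTG or on the other strand CACCTG, shown in capitals.
Epcam: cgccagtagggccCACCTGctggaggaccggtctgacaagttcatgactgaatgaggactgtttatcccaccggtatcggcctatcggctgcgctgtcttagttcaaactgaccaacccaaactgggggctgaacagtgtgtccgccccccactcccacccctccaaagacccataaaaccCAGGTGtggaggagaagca
These letters occur on either strand in the 250 upstream bases of 5657 of 32851 RefSeq promoters (17.2%). Of 30 adhesion genes 18 matched a promoter entry, with 23 promoters between them, and 13 of those promoters, from 11 genes, hold the letters. A match is a description of sequence and not a measured site. Of the genes for repressors of epithelial genes, Snai1 and Snai2 are described here. Twist1, which was not called with all libraries, is described below. Snai1 and Snai2 were at low levels, and since they lay outside the naming rule they were chosen after their values were seen. Other such repressors are not described, and a link to the rise of Epcam was not tested. Snai1 was at 18.2 and 18.8 CPM at day 4, and at 8.82 and 10.7 at day 6, a change of -0.94 ± 0.29 (adjusted p = 0.0202). Its call was lost with DESeq2 (adjusted p = 0.0747), in the AS libraries alone (adjusted p = 0.0695), without day 4 B (adjusted p = 0.128) and without day 6 A (adjusted p = 0.177). Snai2, at 32.4, 41.9, 22.0 and 16.4 CPM in the same order, fell by 0.97 ± 0.23 (adjusted p = 0.00227), and this call too was lost in the AS libraries alone (adjusted p = 0.0527) and without day 4 B (adjusted p = 0.102).

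Spint1 and Spint2 encode membrane-bound inhibitors of the serine proteases that act at epithelial surfaces. Spint1 was at 14.2 and 9.41 CPM in the day 4 libraries, and at 84.0 and 91.3 in the day 6 libraries, a rise of 2.98 ± 0.19 (adjusted p = 2.31e-12). Spint2 was at 28.9 and 17.0, and then at 113 and 132 CPM, a rise of 2.52 ± 0.17 (adjusted p = 4.05e-12). Neither gene overlapped between days, and both calls held under every alternative run. The other members that rose include the claudins Cldn3, Cldn4 and Cldn7, the tight junction gene Tjp3, the polarity gene Crb3 and the desmosome genes Dsp, Dsg2 and Jup. Pkp2, a desmosomal plaque gene, was the one called lower, from 152 and 131 CPM to 87.9 and 92.7 (-0.64 ± 0.16, adjusted p = 0.00303). Cldn6, a claudin of early embryonic epithelium, was at 6.08, 1.34, 7.26 and 9.74 CPM. Its change of 1.52 ± 0.47 (adjusted p = 0.0184) rested on day 4 B, since without that library it was 0.46 (adjusted p = 0.625). Without day 4 A it was 2.61, and the call was also lost without day 6 B (adjusted p = 0.11) and in the AS libraries alone (adjusted p = 0.184).

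Of 16 tested regulators of epithelial fate, 8 rose and 2 fell, with 3 higher and 0 lower once day 4 B was left out. Tfap2c, a transcription factor of trophectoderm, germ cells and surface ectoderm, had 1 and 0 UMIs at day 4, and 81 and 104 at day 6. Relative to library size this is a ratio of 174 (counting interval 30.9 to 6916), and the adjusted p was 2.59e-09, with the call kept on leaving out either day 4 library. Ehf, an ETS factor of glandular epithelia, was at 13.2 and 15.7 CPM and then at 54.5 and 63.4 (1.99 ± 0.25, adjusted p = 8.39e-07). Cbx7, a Polycomb subunit, was at 18.2 and 10.5 CPM and then at 34.7 and 35.2 (1.40 ± 0.20, adjusted p = 4.29e-06). Ehf and Cbx7 kept their calls under every alternative run. The 2 members that fell were the Krüppel-like factor Klf5 and the endoderm factor Gata6, both below 20 CPM. Klf5 was at 12.7 and 16.1 CPM, then at 7.52 and 8.06 (adjusted p = 0.0125), and Gata6 was at 5.07 and 6.5, then at 1.04 and 2.01 (adjusted p = 0.00742). Both calls were lost without day 4 B (adjusted p = 0.265 and 0.126), without day 6 A (adjusted p = 0.106 and 0.134) and in the AS libraries alone (adjusted p = 0.098 and 0.0597).

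The simple-epithelium keratins moved against the adhesion genes. Of 6 keratins tested 3 fell and 1 rose, and without day 4 B 1 fell and 0 rose. Krt8, which pairs with Krt18 in simple epithelia, was at 63.8 and 119 CPM at day 4, and at 27.2 and 41.0 at day 6. Both day 6 libraries were below both day 4 libraries, with a change of -1.49 ± 0.44 (adjusted p = 0.0147). The call was lost without day 4 B (-0.92, adjusted p = 0.291), without day 6 A (-1.20, adjusted p = 0.167) and with DESeq2 (adjusted p = 0.324). Krt18 was at 25.8 and 72.8, then at 15.0 and 14.8 CPM (-1.81 ± 0.46, adjusted p = 0.00414), and here too the call was lost without day 4 B (-0.79, adjusted p = 0.412) and with DESeq2 (adjusted p = 0.0963). Krt19, a small keratin of ducts, was at 207 and 353 CPM at day 4 and at 96.5 and 121 at day 6. Its fall of 1.40 ± 0.21 on the log2 scale (adjusted p = 6.97e-06) held under every alternative run. Krt17, a stress keratin, went from 0 UMIs in both libraries to 4 in each, at least 2.51-fold against 3 UMIs over day 4. That call (adjusted p = 0.0436) was lost with the replicate letter as a block (adjusted p = 0.0641), with no count filter (adjusted p = 0.0547) and on leaving out any AS library (adjusted p from 0.0854 to 0.294). Of 9 tested genes of stratified epithelium 3 rose and 1, Sprr2b, fell, with a median change of 0.19 (0.32 without day 4 B). Among those that rose, Dmkn went from 24.3 and 31.8 to 62.0 and 73.9 CPM (1.23 ± 0.26, adjusted p = 0.000869).

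**Figure D2:**
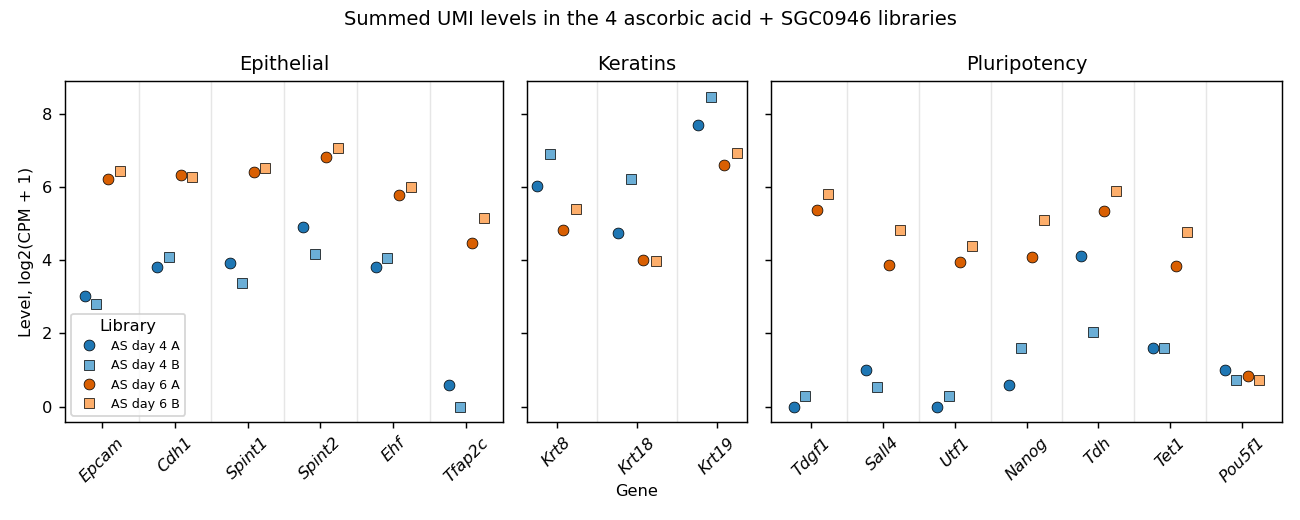
Levels as log2(CPM + 1) in the 4 AS libraries (circles A, squares B; blue day 4, orange day 6) of epithelial, keratin and pluripotency genes. Epcam, Cdh1, Spint1 and Spint2 separate the days upwards, Krt8, Krt18 and Krt19 downwards, and Pou5f1 lies at about 1 CPM in all 4 libraries.

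Pluripotency genes rose in 19 of 40 tested members and fell in 2, with a median change of 1.45. When members at 3 UMIs or fewer in a group were set at their bound the median was 1.42. Without day 4 B, 14 rose and 1 fell, and in the AS libraries alone 13 rose and 0 fell. Tdgf1, the Nodal co-receptor also known as Cripto, had 0 and 1 UMIs at day 4, and 155 and 164 at day 6. The ratio of UMIs was 300.3 (counting interval 53.5 to 11899.7), with an adjusted p of 2.87e-10. Utf1, a chromatin factor of undifferentiated cells, had 0 and 1 UMIs, then 56 and 59, a ratio of 108 (19.05 to 4313) with adjusted p = 3.93e-08. Sall4, a zinc-finger factor of ESCs, was at 1.01 and 0.448 CPM at day 4, and at 13.7 and 27.2 at day 6, a change of 4.91 ± 0.49 (adjusted p = 2.24e-08) that rests on 2 UMIs in each day 4 library.

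Nanog, a core factor of naive pluripotency, was at 0.507 and 2.02 CPM at day 4 and at 16.1 and 33.6 CPM at day 6. The days did not overlap, and the change was 3.93 ± 0.46 (adjusted p = 1.61e-07). Day 4 A held 1 UMI of it. Tdh, the threonine dehydrogenase of mouse ESCs, was at 16.2 and 3.14 CPM and then at 39.4 and 58.4. Its change of 2.70 ± 0.35 (adjusted p = 1.52e-06) was 3.92 without day 4 A and 1.57 without day 4 B (adjusted p = 0.00205). These day 6 levels lay far below those of ESC libraries A and B, where Nanog was at 395 and 363 CPM, Sall4 at 356 and 357 and Tdh at 444 and 348.

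Of the genes of the classical reprogramming cocktail, Pou5f1, Sox2 and Klf4 gave no call, and Myc is not described here. Pou5f1, which encodes OCT4, was at 1.01 and 0.672 CPM at day 4 and at 0.778 and 0.671 at day 6 (adjusted p = 0.992). Sox2 was at 0, 1.34, 0.519 and 5.37 CPM (1.47 ± 1.03, adjusted p = 0.333), with the highest value in day 6 B alone. Klf4 was at 20.3, 22.9, 20.5 and 13.1 CPM (-0.35 ± 0.24, adjusted p = 0.313), and the groups overlapped. Whether transcripts of the induced factors count towards these genes is not given in the sources used here. The members that fell were Klf5, given above, and Epha2, an ephrin receptor, at 77 and 74.2 and then at 44.9 and 56.4 CPM (adjusted p = 0.00338). The Epha2 call was lost without day 6 A (adjusted p = 0.123) and in the AS libraries alone (adjusted p = 0.0979).

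Genes of the DNA methylation machinery rose in 4 of 9 tested members and fell in none, and 3 rose without day 4 B. Tet1, a cytosine dioxygenase of ESCs, was at 2.03 and 2.02 CPM at day 4 and at 13.2 and 26.2 at day 6, a rise of 3.22 ± 0.43 (adjusted p = 1.48e-06). Its relative Tet2 was at 8.61 and 7.40, then at 26.2 and 16.8 CPM (1.48 ± 0.25, adjusted p = 6.57e-05). Neither gene overlapped between days. Dnmt3b, a de novo methyltransferase, was at 5.07 and 3.36 CPM and then at 10.6 and 19.8 (1.91 ± 0.40, adjusted p = 0.000706), with the call lost without day 4 B (1.54, adjusted p = 0.0602).

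Shares of cells with a UMI were compared at equal depth, for which each cell was thinned to 1000 UMIs. This left out 5 cells of day 4 A and 2 of day 6 B. Epcam was seen in 0.746% and 0.847% of cells at day 4, and in 5.10% (exact 95% interval 2.74 to 8.56) and 5.85% (3.06 to 10.002) at day 6. Unthinned, the shares were 6.47%, 8.90%, 24.7% and 27.5%. Untreated MEFs, where Epcam was at under 1 CPM, gave 0 of 298 and 0 of 431 thinned cells, which allows shares of up to 1.01% and 0.696% (3 cells of the total, used as the limit wherever a count is 0), and ESCs gave 26.8% in both libraries. Cdh1 was seen in 1 cell of each day 4 library, and in 7.06% (4.24 to 10.9) and 5.37% (2.71 to 9.40) of day 6 cells. Tdh was seen in 0 thinned cells at day 4, which allows up to 2.24% and 1.27% at this depth, and in 2.75% (1.11 to 5.57) and 4.88% (2.36 to 8.79) at day 6. It was not absent at day 4, since unthinned the shares of Tdh were 7.19%, 4.24%, 23.9% and 32.4%. Krt8 went the other way, from 8.21% and 9.32% to 1.96% and 3.41% of thinned cells, and Pou5f1 was seen in no thinned AS cell. No test was made of shares, since 2 libraries against 2 allow no exact permutation p under 0.333. The intervals cover counting error only.

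Fibroblast genes did not move as 1 block. Collagen genes rose in 9 and fell in 4 of 23 tested, with a median change of 0.50. Without day 4 B, 5 rose and 2 fell. Those that rose include basement membrane chains: Col4a2 was at 252 and 179 CPM at day 4 and at 415 and 386 at day 6 (0.91 ± 0.14, adjusted p = 8.22e-06), and its partner Col4a1 at 282, 199.9, 442 and 416 (0.85 ± 0.14, adjusted p = 5.39e-05). Col6a2, a chain of the beaded filament around cells, rose from 53.7 and 36.8 to 98.5 and 98.7 CPM (1.19 ± 0.18, adjusted p = 1.01e-05). Fibril-forming chains were among those that fell, but the fibril-forming chains Col5a3 and Col27a1 were among those that rose. Col1a2 and Col7a1 were also called lower. Col5a2 went from 493 and 362 to 219.6 and 205 CPM (-0.997 ± 0.14, adjusted p = 5.3e-06). Col3a1 went from 381 and 330.2 to 208 and 200.1 (-0.80 ± 0.18, adjusted p = 0.00159), a call lost when listed feeder cells were kept (-0.55, adjusted p = 0.236). Col1a1, the chief chain of fibroblast matrix, was at 257 and 317, then at 400.1 and 417 CPM, and was not called (0.50 ± 0.24, adjusted p = 0.136), although it was with no count filter (adjusted p = 0.000499).

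Of 30 matrix glycoproteins and modifiers 6 rose and 6 fell, with a median of 0.01, and without day 4 B 3 rose and 4 fell. Prelp, a leucine-rich proteoglycan that anchors basement membranes, rose from 154 and 282 to 930.4 and 922 CPM (2.05 ± 0.22, adjusted p = 4.32e-08). Efemp1, a fibulin of elastic tissue, fell from 519.7 and 627 to 304 and 345 CPM (-0.83 ± 0.12, adjusted p = 6e-06). Neither overlapped between days. Lox, which cross-links collagen, was at 317 and 370.1 and then at 184 and 149 CPM (-1.05 ± 0.25, adjusted p = 0.0022), and was not called with DESeq2 (adjusted p = 0.0587). Among 23 matrix proteases and inhibitors 5 rose and 4 fell (4 and 3 without day 4 B). Mmp2, a gelatinase, rose from 113 and 103 to 206 and 199.7 CPM (0.92 ± 0.12, adjusted p = 1.79e-06), and Serpine2, an inhibitor of thrombin and urokinase, from 68.9 and 51.1 to 174 and 148 (1.47 ± 0.18, adjusted p = 3.44e-07). Plaur, the urokinase receptor, fell from 128 and 109 to 44.9 and 49.7 CPM (-1.32 ± 0.16, adjusted p = 3.05e-07). The collagenase Mmp13 had 0 and 1 UMIs at day 4 and 33 and 103 at day 6, a ratio of 128 (counting interval 22.6 to 5094) with adjusted p = 0.00112.

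Of 23 mesenchymal regulators 4 rose and 6 fell (3 and 2 without day 4 B). Runx2, the osteoblast factor, fell from 72.9 and 56.0 to 26.2 and 25.8 CPM (-1.28 ± 0.20, adjusted p = 1.83e-05). Prrx1, a homeobox factor of limb and facial mesenchyme, fell from 493 and 551 to 338 and 315 (-0.68 ± 0.12, adjusted p = 0.00015), with adjusted p = 0.0519 when listed cells were kept. Pdgfrb, the receptor for platelet-derived growth factor on mural cells and fibroblasts, rose from 7.09 and 10.1 to 27.5 and 23.8 CPM (1.51 ± 0.25, adjusted p = 4.56e-05). Twist1, a factor of mesenchymal fate, was at 148, 85.2, 123 and 121 CPM (0.12 ± 0.18, adjusted p = 0.708). Day 4 A and B lay on either side of day 6 for Twist1, and without day 4 A the change was called (0.51, adjusted p = 0.0274).

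Surface proteins used to sort fibroblasts rose in 2 and fell in 5 of 15 tested, and rose in 3 and fell in 3 without day 4 B. Thy1, whose loss is followed in reprogramming, was at 257, 376, 357 and 365 CPM (0.17 ± 0.16, adjusted p = 0.485) and did not separate the days. At 1000 UMIs a cell, 23.1%, 29.2%, 28.6% and 26.8% of AS cells had a Thy1 UMI, against 50.0% and 46.6% of untreated MEFs. Cd34, a sialomucin of stromal progenitors, fell from 703 and 711 to 415 and 432 CPM (-0.74 ± 0.11, adjusted p = 6.97e-06). Mcam, an adhesion molecule of perivascular cells, rose from 28.9 and 18.2 to 81.9 and 100.04 CPM (2.04 ± 0.21, adjusted p = 1.39e-08). Contractile genes and targets of the cofactor YAP fell in 7 of 20 tested and rose in 0 (4 fell and 1 rose without day 4 B). Tpm1, a tropomyosin of stress fibres, fell from 1476 and 1594 to 862 and 737 CPM (-0.94 ± 0.14, adjusted p = 5.48e-06), and Ankrd1, a YAP target, from 24.3 and 39.7 to 2.33 and 4.03 (-3.44 ± 0.53, adjusted p = 1.66e-05).

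Genes of the TGF-beta and BMP response fell in 8 of 19 tested and rose in 0, with a median of -0.64, and without day 4 B 8 fell and 1 rose. The members that fell include extracellular antagonists. Fst, which binds activin, went from 366 and 278 to 112 and 109 CPM (-1.53 ± 0.25, adjusted p = 3.32e-05). Nog, which binds BMPs, went from 26.8 and 24.9 to 5.96 and 8.39 (-1.86 ± 0.31, adjusted p = 5.73e-05). The BMP target Id1, an inhibitor of basic helix-loop-helix factors, went from 717 and 632 to 393 and 470.0 CPM (-0.64 ± 0.12, adjusted p = 0.000132). Each of the 3 kept its call under every alternative run. Among Wnt target genes 1 of 16, Lef1, was called higher and 0 lower, and that call was lost without day 4 B.

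ERK targets and feedback genes split evenly, 5 of 23 higher and 5 lower, with 3 higher and 6 lower without day 4 B. Those that rose are feedback regulators and ETS factors. Spry4, an inhibitor of the receptor kinase cascade, was at 16.7 and 6.72 CPM and then at 40.2 and 39.3 (1.96 ± 0.29, adjusted p = 9.52e-06), a change of 2.56 without day 4 A and 1.25 without day 4 B. Etv5 rose from 43.6 and 37.4 to 78.6 and 79.2 CPM (0.99 ± 0.16, adjusted p = 3.34e-05), and Spred1 from 109 and 85.9 to 148 and 160.1 (0.69 ± 0.11, adjusted p = 3.43e-05). Among those that fell, Fosl1, an AP-1 subunit, went from 60.3 and 33.8 to 5.70 and 11.1 CPM (-2.45 ± 0.30, adjusted p = 3.16e-07), and Phlda1 from 383 and 218 to 134 and 145 (-1.08 ± 0.18, adjusted p = 5.93e-05). Egr1, an immediate-early gene of the pathway, was at 138, 94.4, 131 and 132 CPM and did not separate the days (0.22 ± 0.20, adjusted p = 0.495).

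Secreted inflammatory genes rose in 5 and fell in 4 of 20 tested, and rose in 3 and fell in 2 without day 4 B. Serpina3n, an acute-phase protease inhibitor, rose from 12.2 and 27.6 to 183 and 228 CPM (3.21 ± 0.27, adjusted p = 4.45e-10), with 4.07 without day 4 B. Il1rn, the antagonist of the interleukin-1 receptor, rose from 143 and 216 to 499 and 696 CPM (1.70 ± 0.29, adjusted p = 8.43e-05). Ptgs2, the inducible cyclooxygenase, fell from 125 and 93.7 to 24.6 and 28.5 CPM (-2.02 ± 0.25, adjusted p = 4.77e-07). The chemokine Ccl2 was at 733 and 477 CPM and then at 303 and 347 (-0.89 ± 0.24, adjusted p = 0.00649), a call lost without day 4 A (adjusted p = 0.0941), without day 6 A (adjusted p = 0.0839) and with DESeq2 (adjusted p = 0.066).

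Among metabolic genes, those of cholesterol and fatty acid synthesis fell in 12 of 28 tested and rose in 0, and 10 fell without day 4 B. Msmo1, a sterol oxidase, fell from 106 and 100.4 to 58.1 and 53 CPM (-0.89 ± 0.14, adjusted p = 2.14e-05). Genes of the ATF4 and amino acid stress response fell in 12 of 26 and rose in 2, or in 5 and 2 without day 4 B. Psat1, of serine synthesis, fell from 552 and 595 to 228 and 253 CPM (-1.26 ± 0.09, adjusted p = 1.39e-11), and Mthfd2, of mitochondrial folate metabolism, from 94.2 and 100.4 to 36.0 and 42.6 (-1.32 ± 0.15, adjusted p = 9.4e-08). Phgdh, the first enzyme of serine synthesis, was at 40.0, 80.5, 30.9 and 26.5 CPM (-1.15 ± 0.20, adjusted p = 8.45e-05), a call lost without day 4 B (-0.47, adjusted p = 0.189) and in the AS libraries alone (adjusted p = 0.0736).

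Genes of glycolysis and the hypoxia response rose in 8 and fell in 4 of 24 (7 and 2 without day 4 B). Slc2a3, a glucose transporter, rose from 67.4 and 49.8 to 167 and 160.1 CPM (1.53 ± 0.16, adjusted p = 2.78e-08), whereas the glycolytic enzyme gene Pgk1 fell from 119 and 172 to 72.3 and 63.4 (-1.12 ± 0.20, adjusted p = 0.000114). The count for oxidative phosphorylation turned with day 4 B: 0 of 40 rose and 11 fell with all libraries, and 6 rose and 1 fell without it. Detoxification and aldehyde enzymes rose in 6 and fell in 7 of 22 (5 and 5 without day 4 B). Aldh3a1, an aldehyde dehydrogenase of epithelia, rose from 477 and 475 to 1036 and 977 CPM (1.08 ± 0.14, adjusted p = 1.48e-06). Of the targets of the antioxidant factor NRF2, Srxn1 fell from 106 and 87.2 to 43.0 and 42.0 CPM (-1.16 ± 0.14, adjusted p = 3.28e-07), and Nqo1 fell from 103 and 94.4 to 51.1 and 47.0 (-0.99 ± 0.18, adjusted p = 0.000117).

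Replication genes of S phase fell in 10 of 42 tested and rose in 1, or in 6 and 0 without day 4 B. Rrm2, a subunit of ribonucleotide reductase, fell from 415 and 491 to 262 and 308 CPM (-0.68 ± 0.13, adjusted p = 0.000206). G2/M genes rose in 5 and fell in 1 of 52, neither share above that over all genes (10.8% and 11.4%). Their median change was 0.01 (0.18 without day 4 B), so the list did not move as a whole. Psrc1, a spindle gene, rose from 129 and 119 to 228 and 229 (0.89 ± 0.09, adjusted p = 1.03e-08). Cdkn1a, the p21 inhibitor of the cell cycle, was at 591, 583, 624 and 601 CPM (0.06 ± 0.10, adjusted p = 0.728), while 7 of 26 p53 targets and senescence genes rose and 2 fell, with 2 and 3 without day 4 B.

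For interferon response genes, the 2 day 4 libraries lay on either side of day 6. These are genes that type I interferon induces through its receptor, and many of their products restrict viruses. The summed level of the 34 tested members of the list was 208 CPM in day 4 A, 2340 in day 4 B, 457 in day 6 A and 464 in day 6 B. Day 4 B exceeded both day 6 libraries for 34 of 34 genes, and day 4 A was below both for 28. The matching shares over all tested genes were not taken. The list was examined with the difference between the day 4 libraries already known, so these counts describe it and do not test it. With all libraries 25 were called lower and 0 higher (median -1.90), without day 4 A 32 were lower, and without day 4 B 13 were higher and 0 lower. In the AS libraries alone 1 was called lower and 0 higher, and with DESeq2 11 lower and 0 higher. Reads of close copies such as Ifit3 and Ifit3b may be split unevenly.

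Isg15, a ubiquitin-like modifier (chr4:156199424-156200818, minus strand), was at 2.03, 195, 6.74 and 4.36 CPM in day 4 A, day 4 B, day 6 A and day 6 B. Its change of -4.24 ± 0.70 (adjusted p = 4.22e-05) became 1.47 (adjusted p = 0.255) without day 4 B. Usp18, which removes that modifier, was at 2.03, 121, 6.48 and 9.06 CPM (-3.19 ± 0.60, adjusted p = 0.000223), or 1.90 (adjusted p = 0.0857) without day 4 B. Irf7, a transcription factor that amplifies the response, was at 2.53, 95.5, 9.59 and 4.70 CPM (-2.89 ± 0.57, adjusted p = 0.000402), or 1.53 (adjusted p = 0.138) without day 4 B. All 3 calls were also lost in the AS libraries alone (adjusted p = 0.102, 0.143 and 0.151). A pair of members outside the naming rule was chosen after their values were seen. Gbp3, a guanylate-binding protein, was at 1.01, 57.4, 13.5 and 8.06 CPM and turned from -1.62 ± 0.51 (adjusted p = 0.0203) to higher at day 6 (adjusted p = 0.00199) without day 4 B, where day 4 rests on 2 UMIs, both called. Ifit1, which binds foreign RNA ends, was at 0, 90.8, 5.70 and 7.05 CPM (-3.05 ± 0.70, adjusted p = 0.00172), and without day 4 B the remaining day 4 library held no UMI of it.

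Upstream windows of 3 of these genes are printed because they carry repeated copies of the core of the interferon-stimulated response element, searched as GAAANNGAAA or, on the other strand, TTTCNNTTTC, and shown in capitals. They are from RefSeq on GRCm38.p6: Isg15 at -90 to -41 from the start (chr4:156200859-156200908, minus strand), Ifit1 further upstream (chr19:34640774-34640823, plus strand) and Gbp3 at -60 to -11 (chr3:142559984-142560033, plus strand).
Isg15: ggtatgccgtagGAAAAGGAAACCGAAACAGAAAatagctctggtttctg
Ifit1: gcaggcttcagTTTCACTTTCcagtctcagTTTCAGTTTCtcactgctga
Gbp3: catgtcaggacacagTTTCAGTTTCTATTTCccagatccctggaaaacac
In Isg15 and Gbp3 the copies overlap. The letters occur in the 250 upstream bases of 978 of 32851 promoters (2.98%). Of 36 list genes, 26 matched a promoter entry, with 30 promoters, and 14 of those, from 14 genes, hold them.

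The high level in day 4 B was spread over its cells. Members of the list gave a median of 20.9 UMIs per 10000 UMIs of a cell in day 4 B, with a 10th percentile of 9.70. The medians were 1.76 in day 4 A, 3.70 and 3.20 in day 6 A and B, and 1.49 and 1.58 in untreated MEFs. At 1000 UMIs a cell, an Isg15 UMI was seen in 0.746%, 21.2% (exact interval 16.2 to 27.0), 1.57% and 0% of cells in day 4 A, day 4 B, day 6 A and day 6 B, where 0 allows up to 1.46%. Cells on the feeder list, which were not summed, carried 584 CPM of these genes in day 4 A, 3947 in day 4 B, 374 in day 6 A and 608 in day 6 B. Among the other libraries, high sums were found in kept cells of A2S day 2 (1899 and 2212 CPM) and FBS day 3 (2102 and 1995), and the rest ran from 132 to 481. Listed feeder cells were also most frequent there, at 27.2% and 23.2% of barcodes in A2S day 2 and 35.8% and 26.9% in FBS day 3. In ESCs held in A2S medium they made up 14.2% and 11.2%, with sums in kept cells of 219 and 229 CPM. The part of feeder cells or of macrophage transcripts in these sums was not tested. Of 13 MHC class I and antigen processing genes 4 were called lower and 0 higher with all libraries, and 4 higher and 0 lower without day 4 B. B2m, the light chain of MHC class I, was at 1030.3, 1879, 957 and 899.7 CPM (-0.65 ± 0.15, adjusted p = 0.00224), or -0.15 (adjusted p = 0.51) without day 4 B.

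**Figure D3:**
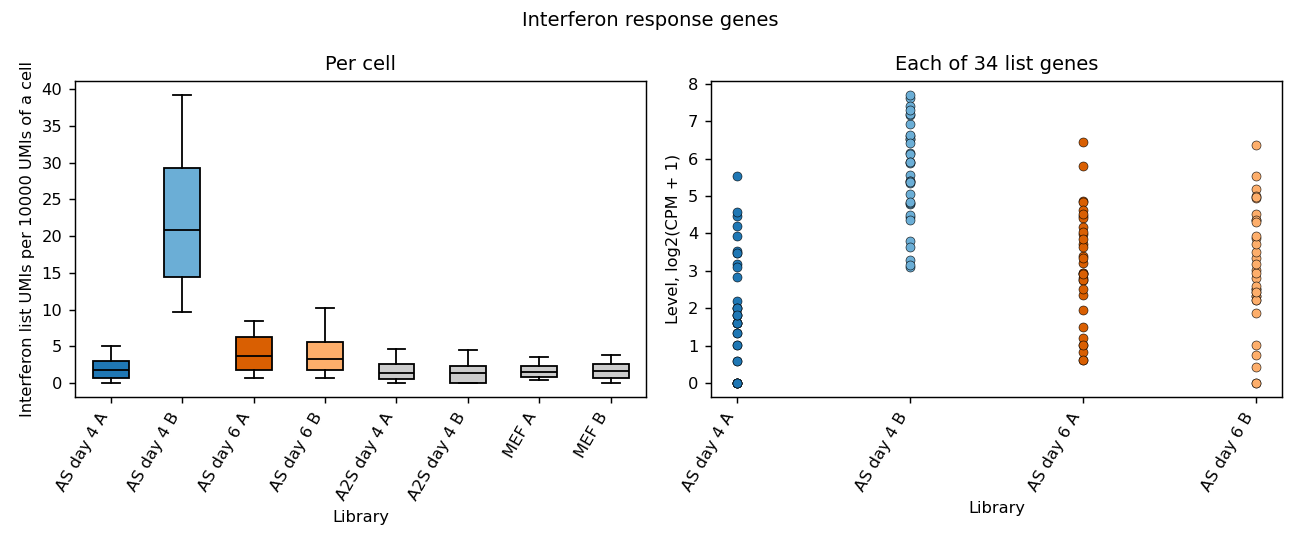
Left, UMIs of interferon list genes per 10000 UMIs of a cell (box: median and quartiles; whiskers: 10th to 90th percentile) in the 4 AS libraries, the A2S day 4 libraries and untreated MEFs. Right, log2(CPM + 1) of each of 34 list genes in the AS libraries; the cells of day 4 B have a median of 20.9, against 1.76 to 3.70 in the other AS libraries.

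Of the genes with the largest rises by the naming rule, several are known outside the groups above. Trh, the precursor of thyrotropin-releasing hormone, was at 18.2 and 0 CPM at day 4 and at 93.6 and 148 at day 6 (4.32 ± 0.66, adjusted p = 1.84e-05). Without day 4 B the change was 2.72 (adjusted p = 0.00182), and without day 4 A the day 4 level is 0. Ecel1, a neuronal endopeptidase-like protein, rose from 6.59 and 3.14 to 58.9 and 42.0 CPM (3.54 ± 0.40, adjusted p = 1.01e-07), or 2.94 without day 4 B. Txnip, a glucose-responsive arrestin that binds thioredoxin, rose from 142 and 91.0 to 573 and 589 CPM (2.36 ± 0.15, adjusted p = 2.31e-12). Mgp, a matrix protein that blocks calcification, rose from 196 and 332 to 1192 and 1221 (2.17 ± 0.38, adjusted p = 7.88e-05). Sbspon, a secreted thrombospondin-domain protein, was at 14.2, 5.60, 69.5 and 61.4 CPM (2.93 ± 0.32, adjusted p = 4.55e-08), with 3.54 without day 4 A and 2.21 without day 4 B.

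Imprinted genes, expressed from 1 parental copy, rose in 9 and fell in 1 of 25 tested (7 and 2 without day 4 B). Nnat, a small membrane protein, rose from 50.7 and 43.5 to 179 and 164 CPM (1.89 ± 0.18, adjusted p = 3.03e-09). The linked pair Igf2, a fetal growth factor, and H19, a noncoding RNA, rested on day 6 A. Igf2 was at 19.2, 11.7, 174 and 38.6 CPM (2.93 ± 0.59, adjusted p = 0.000502), and without day 6 A its change was 1.43 (adjusted p = 0.163). H19, which is outside the naming rule and was chosen after its values were seen, was at 90.2, 28.9, 700.4 and 76.5 CPM (2.88 ± 0.56, adjusted p = 0.000353), and without day 6 A it was 0.52 (adjusted p = 0.546). Without day 6 B the changes were 3.61 for Igf2 and 3.71 for H19, and for H19 3.77 without day 4 A and 2.13 without day 4 B. Cdkn1c, an inhibitor of the cell cycle, was highest in the other library, at 17.2, 11, 37.3 and 89.3 CPM (2.23 ± 0.37, adjusted p = 3.9e-05), or 1.5 (adjusted p = 0.00616) without day 6 B.

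Among the genes with large falls, 5 are given first. Tes, a focal adhesion protein, fell from 123 and 115 to 28.5 and 25.5 CPM (-2.12 ± 0.18, adjusted p = 4.58e-10). Basp1, a membrane-bound cortical protein, fell from 359.6 and 333 to 85.1 and 104 CPM (-1.88 ± 0.13, adjusted p = 4.16e-12), and Nes, the intermediate filament nestin, from 190.0 and 214 to 54.2 and 78.9 (-1.62 ± 0.13, adjusted p = 1.92e-10). Abcg2, a drug exporter of stem cells, fell from 53.2 and 76.4 to 14.3 and 20.1 (-1.98 ± 0.20, adjusted p = 1.46e-08). Ereg, a ligand of the EGF receptor, fell from 96.2 and 94.1 to 23.1 and 30.2 CPM (-1.85 ± 0.23, adjusted p = 6.83e-07). The days did not overlap for any of these 5 genes, and each call held under every alternative run. Eif2ak2, the interferon-inducible kinase PKR, also met the rule, at 42.5, 149, 28.8 and 38.3 CPM (-1.63 ± 0.27, adjusted p = 4.13e-05), but its change was -0.36 (adjusted p = 0.323) without day 4 B.

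**Figure D4:**
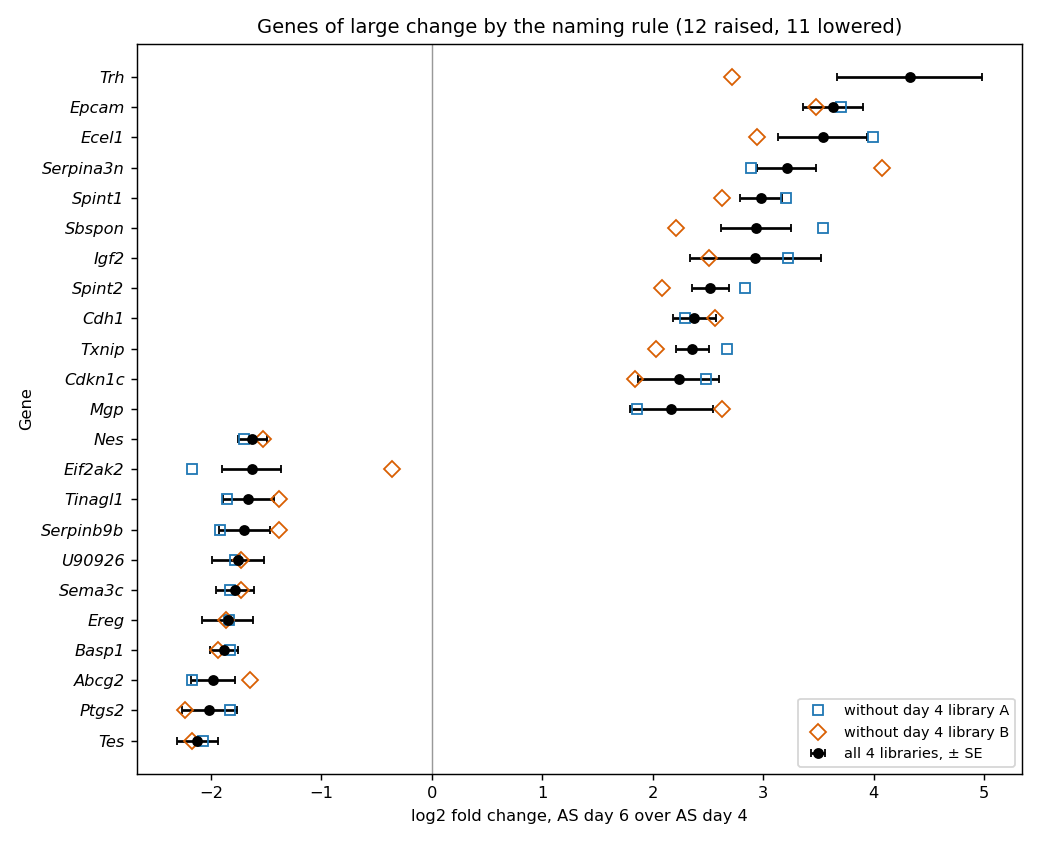
Fitted log2 change from AS day 4 to day 6 with its standard error (black) for 12 genes of largest rise and 11 of largest fall by the naming rule, with the change without day 4 library A (blue squares; none for Trh, whose library B has 0 UMIs) or B (orange diamonds). Most genes keep their change, while Eif2ak2 moves to -0.36 and Trh to 2.72 without day 4 B.

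The change in AS was then set against that in A2S, A2 and S2 over the same days, by the difference of the 2 changes in 1 fit. All 3 differences use the same AS libraries. The change differed from that in A2S for 1402 genes (10.6% of those tested; 6.37% higher in AS and 4.23% lower), from that in S2 for 562 (4.25%; 2.9% higher and 1.35% lower) and from that in A2 for 295 (2.23%; 1.45% higher and 0.779% lower). Over the same days A2S itself gave 3130 calls (23.7%; 11.5% higher and 12.2% lower), A2 1870 (14.1%; 6.8% and 7.34%) and S2 1706 (12.9%; 5.79% and 7.11%). Of the 2936 genes called in AS, 995 were also called in A2 in the same direction, which is 33.9% of the AS calls and 53.2% of the A2 calls, and 28 were called in the opposite direction. With A2S the shared calls were 973, or 33.1% of the AS calls and 31.1% of the A2S calls, and 176 went in opposite directions.

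Cdh1 and Spint1 rose more in AS than in the 3 media with 2i, from lower day 4 levels. Cdh1 was at 171 and 149 CPM at day 4 in A2S and at 285 and 258 at day 6, and the AS change exceeded the A2S change by 1.62 ± 0.24 (adjusted p = 2.26e-05), the A2 change by 1.27 ± 0.26 (adjusted p = 0.00435) and the S2 change by 1.48 ± 0.24 (adjusted p = 0.0003). For Spint1 the excess was 1.42 ± 0.26 over A2S (adjusted p = 0.000319), 1.71 ± 0.28 over A2 (adjusted p = 0.000544) and 1.79 ± 0.26 over S2 (adjusted p = 7.78e-05). At day 6 its levels of 84.0 and 91.3 CPM in AS lay beside 119 and 106 in A2S. Epcam exceeded the A2 change by 2.36 ± 0.52 (adjusted p = 0.0104), a call lost without AS day 4 B (adjusted p = 0.0645) and without A2 day 4 B (adjusted p = 0.121). It was at 4.12 and 7.71, then at 17.0 and 9.79 CPM in A2, and at 357 and 299.9 at day 6 in A2S. Nanog, at 235 and 291 CPM in A2S day 6, gave no call in any of the 3 differences (0.24 ± 0.59 against A2S, 1.38 ± 0.84 against A2 and 1.21 ± 0.66 against S2).

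Krt8 was lower at day 6 in AS and higher at day 6 in A2S. It was at 11.3 and 2.62 and then at 44.2 and 45.4 CPM in A2S, and its difference was -3.94 ± 0.75 (adjusted p = 0.000548), or -5.56 without A2S day 4 A. Calcoco2, an autophagy receptor, was at 1.08 and 1.05 and then at 59.5 and 64.6 CPM in A2S, against 15.7, 3.59, 3.63 and 5.37 in AS (-6.59 ± 0.74, adjusted p = 5.42e-07). That difference was -5.52 without AS day 4 A and -7.63 without AS day 4 B. Mylpf, a fast-muscle myosin light chain, was at 2.15 and 2.62 and then at 60.1 and 82.2 CPM in A2S, against 1.52 to 3.11 in AS (-4.35 ± 0.75, adjusted p = 0.000183), a call lost without AS day 4 B (adjusted p = 0.0651). Ecel1 went from 19.12 and 18.88 down to 7.16 and 7.83 CPM in A2S, so the difference was 4.88 ± 0.57 (adjusted p = 7.09e-07), or 4.28 without AS day 4 B.

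Il34, a ligand of the macrophage receptor CSF1R, rose in AS from 24.3 and 15.2 to 77.8 and 79.2 CPM (2.08 ± 0.22, adjusted p = 3.93e-08). It was at 23.6, 24, 16 and 20.4 in A2, and the difference of 2.45 ± 0.33 (adjusted p = 8.16e-05) was close to those from A2S (2.78 ± 0.32, adjusted p = 6.65e-07) and S2 (2.83 ± 0.35, adjusted p = 1.54e-05). Egr1 stayed above 90 CPM in all AS libraries and went from 10.3 and 8.56 to 0.980 and 1.36 in A2, a difference of 3.20 ± 0.71 (adjusted p = 0.0105). That call was lost without A2 day 4 A (adjusted p = 0.118), A2 day 6 A (adjusted p = 0.0869) or A2 day 6 B (adjusted p = 0.0729). ERK targets and feedback genes had a more positive change in AS than in A2S for 8 of 23, than in A2 for 6 and than in S2 for 8. A more negative one was found for 1, 0 and 0. Over all tested genes the shares were 6.37%, 1.45% and 2.9% more positive, and 4.23%, 0.779% and 1.35% more negative. Within A2S, A2 and S2, 10, 8 and 8 of these members fell from day 4 to day 6 and 0 rose, whereas in AS 5 rose and 5 fell. These differences thus include falls in the media with 2i. Igfbp4, which binds insulin-like growth factors, was at 119.5, 149, 103 and 96.3 CPM in AS and rose from 7.78 and 11.1 to 48.0 and 53.3 in A2 (-2.93 ± 0.40, adjusted p = 8.16e-05).

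Tfap2c was at 17.9 and 23.3 CPM at day 4 in S2, and at 62.1 and 53.7 at day 6, and its change in AS was higher than in S2 (adjusted p = 0.000133). No size is given for that difference, since the AS day 4 libraries held 1 UMI of Tfap2c between them. Cemip, which degrades hyaluronan, rose in AS from 56.7 and 37.9 to 171 and 109 CPM and went from 59.2 and 75.4 to 29.6 and 23.7 in S2 (2.95 ± 0.43, adjusted p = 7.78e-05). Mdk, the growth factor midkine, was at 86.1, 71.7, 95.4 and 76.5 CPM in AS and at 12.05, 16.8, 53.5 and 54.1 in S2 (-1.76 ± 0.24, adjusted p = 4.71e-05). Tes, which fell in AS, was at 56.1, 85.6, 49.1 and 49.4 CPM in S2 (-1.61 ± 0.26, adjusted p = 0.00028).

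**Figure D5:**
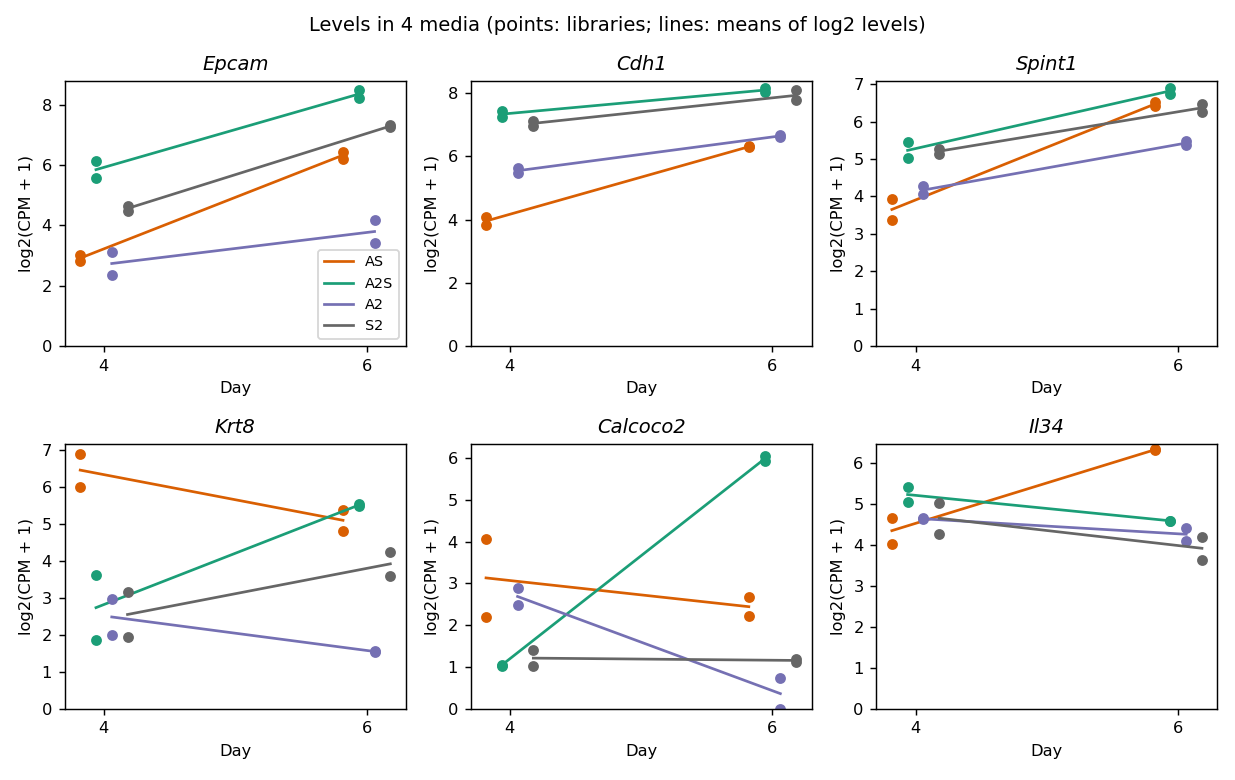
Levels as log2(CPM + 1) of 6 genes at days 4 and 6 in AS, A2S, A2 and S2 (points: libraries; lines: means of the log2 levels). Cdh1 and Spint1 climb more steeply in AS than in the other media, Krt8 falls in AS while it climbs in A2S, Calcoco2 climbs in A2S, and Il34 climbs in AS from 24.3 and 15.2 to 77.8 and 79.2 CPM.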

How the data were processed

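The tables deposited for the 32 libraries, 4 of them AS, give UMI counts as whole numbers for each gene in each cell. Per the labels' protocols, droplets were made with a Bio-Rad ddSeq instrument and the SureCell 3' kit. Per the submitters' processing notes, bcl2fastq 2.19 made the reads and STAR was used with build mm10. How UMIs were counted, and over which annotation, is not given in the sources used here. The file names say that barcodes had passed a knee filter. Cells that the authors had listed as irradiated feeders were dropped by their identifier, and 3 other columns of that list were not used. Doublets were not called or removed. The tables hold 24421 genes, 18897 with a UMI and 0 of them mitochondrially encoded.

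Counts were summed per library and tested with edgeR 4.0.16 in R 4.3.3 (TMM factors, filterByExpr, quasi-likelihood, Benjamini-Hochberg adjusted p under 0.05, no minimum fold). A single fit of all 32 libraries in 16 groups gave the AS contrast and the 3 differences of changes. Standard errors come from the change and the test statistic. Changes of genes with 3 UMIs or fewer in a group are given as ratios or bounds, and differences between media over such a group by their adjusted p alone. The tests were repeated with DESeq2 1.42.0, with RLE factors, without a count filter, with a replicate block, with feeder cells included, with cells under 1000 UMIs removed, on the 4 AS libraries alone and without 1 library at a time. On counts simulated for this contrast (13075 genes), the test recovered 47.8% of 67 genes changed 1.5-fold, 89.6% of 67 changed 2-fold and 100% of 66 changed 4-fold, with 9 false among 167 calls. The simulated libraries all had the spread fitted over all groups, not the wider one of the AS day 4 pair. Changes were placed only in genes above a minimum level in AS. The simulation therefore cannot give the recovery or the false calls of the real AS contrast. Replicates differed by more than sampling noise in every group, so each counts as 1 sample.

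The naming rule took the 12 called genes of largest rise and of largest fall at 50 CPM or more with no overlap between days; Rik, predicted, ribosomal-protein and mitochondrial genes were passed over. A panel of 16 genes was added, with up to 3 called members each way of 34 lists, and the 4 most positive and 4 most negative of each difference. The text describes some of the genes so named, chosen for length, and a few items are not reported here. The contrast, the lists and the rule were chosen with earlier results of these data known. Gene positions are from the GENCODE annotation of mm10, and promoter sequences are RefSeq's. Shares used numpy 2.4.6, pandas 2.3.3 and scipy 1.17.1 in Python 3.11.15, and figures matplotlib 3.10.9.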

Additional observations from a re-analysis of the deposited data

Results flagged for a closer look

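Between media, the change from day 4 to day 6 differed by edgeR's test of the difference itself for 1402 genes between AS and A2S, for 295 between AS and A2 and for 562 between AS and S2. The values below are AS change minus the other medium's change on the log2 scale, for the genes that the naming rule took from each difference.

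Against A2S the positive differences were 4.88 for Ecel1 and 4.01 for Trh, and the changes of Tfap2c (adjusted p = 0.000452) and Tdgf1 (adjusted p = 0.0101) were also more positive in AS. No size is given for Tfap2c and Tdgf1, since the AS day 4 libraries held 1 UMI of each, and their place among the genes named rests on that UMI. The negative ones were -6.59 for Calcoco2, -4.35 for Mylpf and -3.94 for Krt8. Without AS day 4 B the calls of Tfap2c (adjusted p = 0.065), Tdgf1 (adjusted p = 0.12, with 0 UMIs left at AS day 4), Trh (2.40, adjusted p = 0.116) and Mylpf (adjusted p = 0.0651) were lost. That of Trh was also lost with DESeq2 (adjusted p = 0.292) and without either A2S day 4 library (adjusted p = 0.0527 and 0.0887).

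Against A2 the positive differences were 3.20 for Egr1, 2.45 for Il34 and 2.36 for Epcam, and U90926 (adjusted p = 0.0257) also had a more positive change in AS. The negative ones were -2.93 for Igfbp4, -2.37 for Tnfrsf11b, -2.17 for Lgals3bp and -1.90 for Oaf. Of these 8, Il34 and Igfbp4 kept their calls in every setting run. Lgals3bp, at 41.0 and 279 CPM in AS day 4 A and B, gave -0.10 (adjusted p = 0.932) without AS day 4 B, and Tnfrsf11b gave -0.50 (adjusted p = 0.783) when listed feeder cells were kept. U90926, at 100.3, 103, 25.2 and 35.9 CPM in AS, was at 11.7, 12.8, 0.327 and 0 CPM in A2, so its difference rests on 1 UMI at A2 day 6 and no size is given.

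Against S2 the positive differences were 4.43 for Trh, 3.86 for Ecel1 and 2.95 for Cemip, and Tfap2c (adjusted p = 0.000133) was again more positive in AS, over the same 1 UMI. The negative ones were -4.95 for Cxcl3, -1.76 for Mdk, -1.74 for Peg10 and -1.61 for Tes. Cxcl3, a neutrophil chemokine, was at 80.6 CPM in S2 day 6 A and at 0 in S2 day 6 B, and its difference turned positive (adjusted p = 0.771) without S2 day 6 A, over 0 UMIs. Trh was not called with DESeq2 (adjusted p = 0.345) or without AS day 4 B (2.83, adjusted p = 0.0507), and Peg10 was not called with DESeq2 (adjusted p = 0.0877) or without AS day 4 B (adjusted p = 0.0558).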

How the results depend on the processing

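The number of calls in AS, 2936, was 833 in the AS libraries alone, and 1642 to 3229 with 1 library left out. For the differences from A2S, A2 and S2 the counts with 1 library left out were 833 to 2111, 115 to 756 and 231 to 1413, and with no count filter those from A2 and S2 were 576 and 848. With a replicate block the counts were 2899, 1355, 288 and 573, and Krt17 was the one named gene to lose its call. The letters are not shown to pair the libraries: the A and B deviations of day 4 and day 6 correlated at 0.0093 over genes, with 2 pairs.

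Changes that turned direction without day 4 B ran, over the libraries left out, from -5.09 to 1.47 for Isg15, -3.98 to 1.90 for Usp18, -3.68 to 1.53 for Irf7, -3.84 to 7.35 for Ifit1 (0 UMIs in day 4 A), -2.38 to 3.40 for Gbp3 (2 UMIs in day 4 A) and -1.09 to 0.12 for Psme2. The difference of Cxcl3 from S2 ran from -8.86 to 5.15 (0 UMIs in S2 day 6 B). For Ifit1, Gbp3 and Cxcl3 the positive ends are fitted over these few UMIs and give a direction, not a size. Lyz2 had no UMI left without day 4 B. The cause of these turns was not tested.

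Shares depend on depth: Epcam in day 6 A and B was seen in 9.39% and 12.1% of cells at 2000 UMIs and in 24.7% and 27.5% unthinned, and Isg15 in day 4 B in 8.90% at 500 UMIs, 31.8% at 2000 and 82.6% unthinned. With RLE factors every named change kept its direction and call. The differences of Cdh1, Spint1 and Il34 from each medium kept their calls in every setting run, and Nanog gave none in any. Counts of list members between media were taken with all libraries only. With 2 libraries a day, 1 library can decide a gene, and day 4 A, with 139 cells, is the shallowest.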

Other observations

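Of 14 neural markers 4 fell and 2 rose, with 3 lower and 0 higher without day 4 B, and the median change was 0.28 (0.55 with members at 3 UMIs or fewer at their bound). Stmn2, a tubulin-binding protein of growing axons, fell from 1025 and 1316 to 417 and 465 CPM (-1.41 ± 0.14, adjusted p = 5.57e-09). Tubb3, a neuronal tubulin, fell from 30.9 and 20.2 to 3.63 and 9.40 CPM (-1.96 ± 0.34, adjusted p = 7.67e-05), with -1.36 without day 6 A and -2.72 without day 6 B. Heat shock genes fell in 4 of 12 and rose in 1 (3 and 1 without day 4 B), with Bag3, a co-chaperone, at 139, 146, 74.2 and 83.6 CPM (-0.86 ± 0.12, adjusted p = 5.33e-06).

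Of 12 genes for Dot1l and its elongation partners none was called in either direction by edgeR's test. Mllt3, a reader of acylated histones that recruits DOT1L, was at 107, 94.1, 117 and 129 CPM (0.30 ± 0.12, adjusted p = 0.072), and was called without day 4 A (0.38, adjusted p = 0.0392). Of 16 Jumonji demethylases 3 rose and 1 fell, and without day 4 B 0 rose and 1 fell.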
